A study of Mus musculus with 12 samples.

Results

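Transcripts of the replication-dependent histone genes were examined in the RNA-seq libraries of sorted mouse neutrophils. The genes were taken by name and annotation alone, as the protein-coding genes whose GENCODE M21 symbol starts with Hist1h, Hist2h, Hist3h or Hist4. This gave 67 genes, all of which were listed in the count files, among 55335 genes in all. Of these 67, 57 had 10 or more counts in at least 4 of the 12 libraries and were kept, and 10 were not. The kept genes were 6 linker histone H1 genes, 13 H2A genes, 15 H2B genes, 10 H3 genes and 13 H4 genes. In 53 of the 57 the count limit was also met within the 8 libraries of tumor neutrophils, while the other 4 (Hist1h2an, Hist1h2bq, Hist1h4m and Hist2h2ab) were kept only with the help of the bone marrow (BM) libraries.

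The study compared 3 groups of 4 libraries from mice that were all 10 weeks old and on an FVB background. Tumor-associated neutrophils (TANs) came from mammary tumors of PyMT mice or of PyMT-Cxcr2-/- mice. Both carry the polyoma middle T oncogene as a transgene, and the latter also lack the chemokine receptor Cxcr2 in all cells. The third group was BM neutrophils of WT mice, with neither the oncogene nor the Cxcr2 deletion. The study describes each TAN group of the RNA-seq as separate animals. The labels only number the libraries of a group, and for BM they do not say that each is its own animal. Per the study's methods, cells were enriched for CD11b and sorted as CD45+ CD11b+ Ly6G+ F4/80-. No BM of tumor-bearing mice was among the libraries, so tumor and tissue of origin cannot be told apart in a comparison of TANs with BM.

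Replication-dependent histone genes encode the core histones H2A, H2B, H3 and H4, which form the nucleosome, and the linker histones H1, which bind DNA between nucleosomes. They are transcribed from gene clusters mainly in S phase, with the coactivator NPAT, when new DNA has to be packed. Their mRNAs have as a rule no introns and no poly(A) tail. They end instead after a short stem-loop that is bound by the stem-loop binding protein SLBP and cut with the help of the U7 small nuclear RNP. In neutrophil development, division stops before the cell matures, so that mature neutrophils are post-mitotic. The libraries were depleted of ribosomal RNA rather than selected for poly(A), so transcripts without a tail could be counted.

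The stem-loops are shown for genes of each class to show the end that sets these mRNAs apart from other mRNAs. The 16-base histone stem-loop, a stem of 6 base pairs that begins with GG and ends with CC around a T-rich loop of 4 bases, was searched on the sense strand of the GENCODE M21 transcripts. It was found in 55 of 21901 protein-coding genes (0.251%), and 46 of these 55 were among the 67 histone genes. Capitals mark the stem and loop, and the lower-case letters are the 5 bases on either side, written 5′ to 3′ as DNA.
Hist1h1c, linker histone, chr13:23739512-23739527, plus strand: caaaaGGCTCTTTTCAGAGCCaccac
Hist1h1e, linker histone, chr13:23621782-23621797, minus strand: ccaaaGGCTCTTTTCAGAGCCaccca
Hist2h2ac, H2A, chr3:96220418-96220433, minus strand: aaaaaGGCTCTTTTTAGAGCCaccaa
Hist1h2bb, H2B, chr13:23747203-23747218, plus strand: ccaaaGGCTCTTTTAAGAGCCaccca
Hist1h3c, H3, chr13:23745047-23745062, minus strand: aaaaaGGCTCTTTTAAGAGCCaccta
Hist1h4f, H4, chr13:23551291-23551306, minus strand: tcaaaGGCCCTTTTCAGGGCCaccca
Hist2h4, H4, chr3:96262939-96262954, minus strand: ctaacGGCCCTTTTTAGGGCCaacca
Hist4h4, H4, chr6:136803998-136804013, minus strand: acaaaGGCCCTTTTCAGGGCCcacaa

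Of the 57 kept genes, 41 held the stem-loop in their annotated transcript. It started 21 to 54 bases after the stop codon, with a median of 31. The sequence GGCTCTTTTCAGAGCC was the most frequent, in 21 genes, and it was found in H1, H2A, H2B and H3 genes. All 12 H4 genes with a stem-loop had another stem, with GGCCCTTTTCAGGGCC in 7 of them. Of the 16 kept genes without it, 12 had an annotated 3′UTR of fewer than 40 bases, so that the annotated transcript ends before the place where the stem-loop was found in the others. In 11 kept genes the annotated transcript ran more than 500 bases past the loop, and counts on such genes can also come from reads downstream of the processing site.

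The promoters of Hist1h2bb and Hist1h4d are shown as examples of an H2B and an H4 promoter. Sequences are from the RefSeq promoter table (GRCm38.p6), which matched 52 of the 57 kept genes, and run from 250 bases before to 50 bases after the start of the gene. Capitals mark the CCAAT box, the TATAAA box and the octamer with the letters ATTTGCAT, each searched on both strands. Both promoters hold CCAAT and TATAAA, and the octamer is in that of Hist1h2bb only. Hist1h4d is among the 3 of 12 H4 promoters with CCAAT, so in this it is not typical of H4.
Hist1h2bb, chr13:23746484-23746783, plus strand: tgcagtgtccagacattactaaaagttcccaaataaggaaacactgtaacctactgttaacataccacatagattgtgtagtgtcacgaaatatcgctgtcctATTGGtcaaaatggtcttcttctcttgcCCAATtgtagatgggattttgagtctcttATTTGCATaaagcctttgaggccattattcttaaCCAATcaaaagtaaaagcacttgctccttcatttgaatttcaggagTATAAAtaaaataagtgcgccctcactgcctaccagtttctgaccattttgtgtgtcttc
Hist1h4d, chr13:23581318-23581617, plus strand: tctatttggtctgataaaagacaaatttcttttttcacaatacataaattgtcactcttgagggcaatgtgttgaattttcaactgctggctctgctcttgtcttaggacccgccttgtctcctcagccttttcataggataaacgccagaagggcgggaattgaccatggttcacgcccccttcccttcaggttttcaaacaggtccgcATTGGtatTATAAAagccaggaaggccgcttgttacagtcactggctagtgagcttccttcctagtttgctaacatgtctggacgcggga

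CCAAT was found in all 40 matched promoters of H1, H2A, H2B and H3 genes and in 3 of 12 H4 promoters (25%), compared to 41.1% of all genes of the table. TATAAA was found in 61.5% of the histone promoters and in 15.7% of all genes. The octamer was found in 6 H2A and 4 H2B promoters, which is 19.2% of the 52, and in 1.97% of all genes. Many H2A and H2B windows overlap that of a neighboring gene on the other strand, so the same letters can be counted for both genes. Examples are Hist1h2ae with Hist1h2bg and Hist1h2ah with Hist1h2bk, all with the octamer. The counts are thus of genes and not of separate stretches of DNA. These are matches of letters in a window, and binding was not measured.

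Per library, 25032704 to 51351569 reads were counted on genes. The level that 3 counts give was 0.0584 to 0.12 CPM, the counts scaled to library size, which covers counting error only. Cxcr2, the deleted gene, ranged from 1044 to 1524 CPM in the PyMT TAN libraries, from 8.82 to 10.02 CPM in those of PyMT-Cxcr2-/- TANs and from 1824 to 2253 CPM in BM, so the libraries carried the genotype of their labels. The summed level of 17 neutrophil markers was lower in TANs than in BM, with 11662 to 18253 CPM in the PyMT group, 22147 to 38334 CPM in the PyMT-Cxcr2-/- group and 112910 to 158290 CPM in BM. Of the 17, 16 were lower in each TAN group. The summed level of 10 macrophage markers was 2209 to 5304 CPM, 2403 to 4998 CPM and 256 to 359 CPM in the same order, and all 10 were higher in both TAN groups. The summed level of 11 mammary epithelial markers was 53.8 to 497 CPM, 93.5 to 369 CPM and 0.588 to 1.15 CPM, and all 9 that could be tested were higher in both TAN groups. In BM, Krt8, Krt19, Krt14, Csn2, Csn3 and Lalba were at 0 in every library. These marker differences lie between the same groups as those of the histone genes described below, which were lower in TANs. The part of the markers in the histone differences was not tested.

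The first question was how histone transcripts of TANs compare to those of BM neutrophils. They were lower in TANs of both genotypes, in all 5 classes. The CPM of the 57 genes, each counted once, summed to 360, 394, 438 and 501 in the 4 PyMT TAN libraries, to 319, 386, 426 and 457 in the 4 PyMT-Cxcr2-/- TAN libraries and to 2212, 3175, 3190 and 3238 in the 4 BM libraries. Every BM library was above every TAN library, and the lowest BM library was 4.41-fold above the highest TAN library. The mean was 423 ± 60.9 (SD, n = 4) in PyMT TANs, 397 ± 59.5 (SD, n = 4) in PyMT-Cxcr2-/- TANs and 2954 ± 495 (SD, n = 4) in BM, which is 6.98-fold and 7.44-fold higher in BM. These are shares of the reads of a bulk sample, so fewer cells with histone transcripts and fewer transcripts per cell cannot be told apart.

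**Figure D1:**
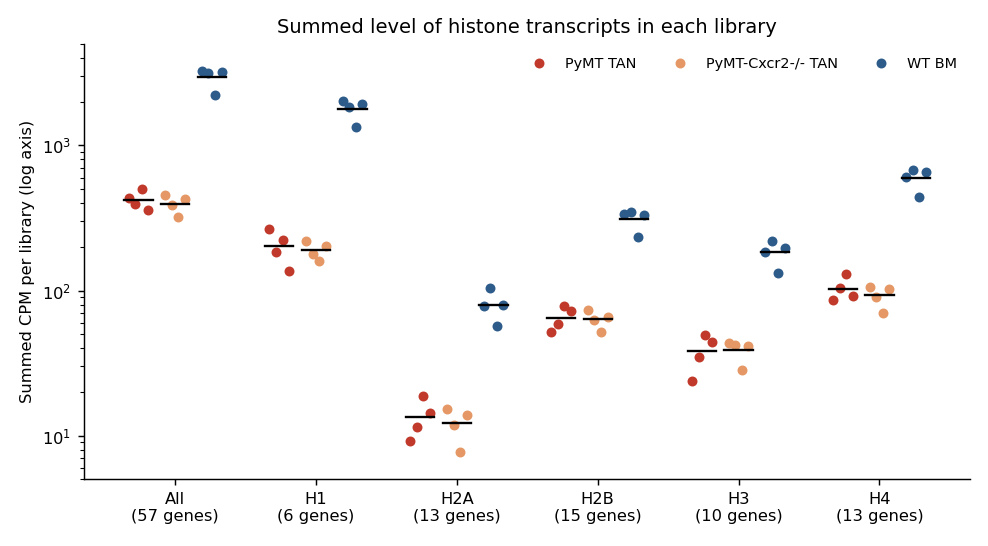
Summed CPM of the kept histone genes, all together and by class, in each of the 12 libraries (log axis), with 1 point per library and a line at the mean of the 4 libraries of a group. In every class the 4 BM points lie above the 8 TAN points, while the points of PyMT TANs and PyMT-Cxcr2-/- TANs overlap.

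Gene by gene, 46 of the 56 histone genes that could be tested were lower in PyMT TANs than in BM and none was higher, by edgeR's quasi-likelihood test. A gene counted as lower or higher here if it changed at least 1.5-fold and its Benjamini-Hochberg adjusted p was below 0.05. Of all 17153 genes tested in this comparison, 23.2% were lower and 30.1% were higher. The median log2 fold change was -2.31 over the histone genes and 0.09 over all genes. In PyMT-Cxcr2-/- TANs, 49 of 55 histone genes tested were lower than in BM and none was higher, compared to 25.1% lower and 34.4% higher among 17732 genes. The median log2 fold change was -2.40 over the histone genes and again 0.09 over all genes. DESeq2 likewise called no histone gene higher in either comparison, with 47 and 49 lower. Of all genes it called 5103 higher and 4450 lower in PyMT TANs, and 6171 and 4468 in PyMT-Cxcr2-/- TANs. By edgeR, 46 histone genes were lower in both comparisons. An unadjusted p under 0.05 by edgeR was found for 49 of the 56 histone genes tested in PyMT TANs, beside 61.9% of all genes tested. In PyMT-Cxcr2-/- TANs it was found for 50 of 55, beside 71.6%. Of these histone genes, 3 and 1 were not called. In PyMT TANs the libraries did not overlap with BM for 47 genes that were lower (28% of all genes) and 1 that was higher (30% of all genes). The latter was Hist1h1t, which met the count limit through its PyMT TAN libraries alone. In PyMT-Cxcr2-/- TANs the libraries did not overlap with BM for 49 genes that were lower (30.1% of all genes). Both comparisons used the same 4 BM libraries. Since BM libraries helped 4 genes past the count limit, the counts were also taken over the 53 genes that met it in TANs. Of these, 45 of 53 were lower in PyMT TANs and 47 of 52 tested were lower in PyMT-Cxcr2-/- TANs.

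After an adjustment for GC content and gene length, the median of PyMT TANs against BM was -1.63 with 40 genes lower and 2 higher. With 1 library left out in turn, 44 to 49 genes were lower in PyMT TANs and 49 to 51 in PyMT-Cxcr2-/- TANs, and up to 2 genes became higher in PyMT TANs (2 without library 3 of this group, Hist1h1t and Hist2h2be, and 1 without library 1, Hist3h2ba).

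**Figure D2:**
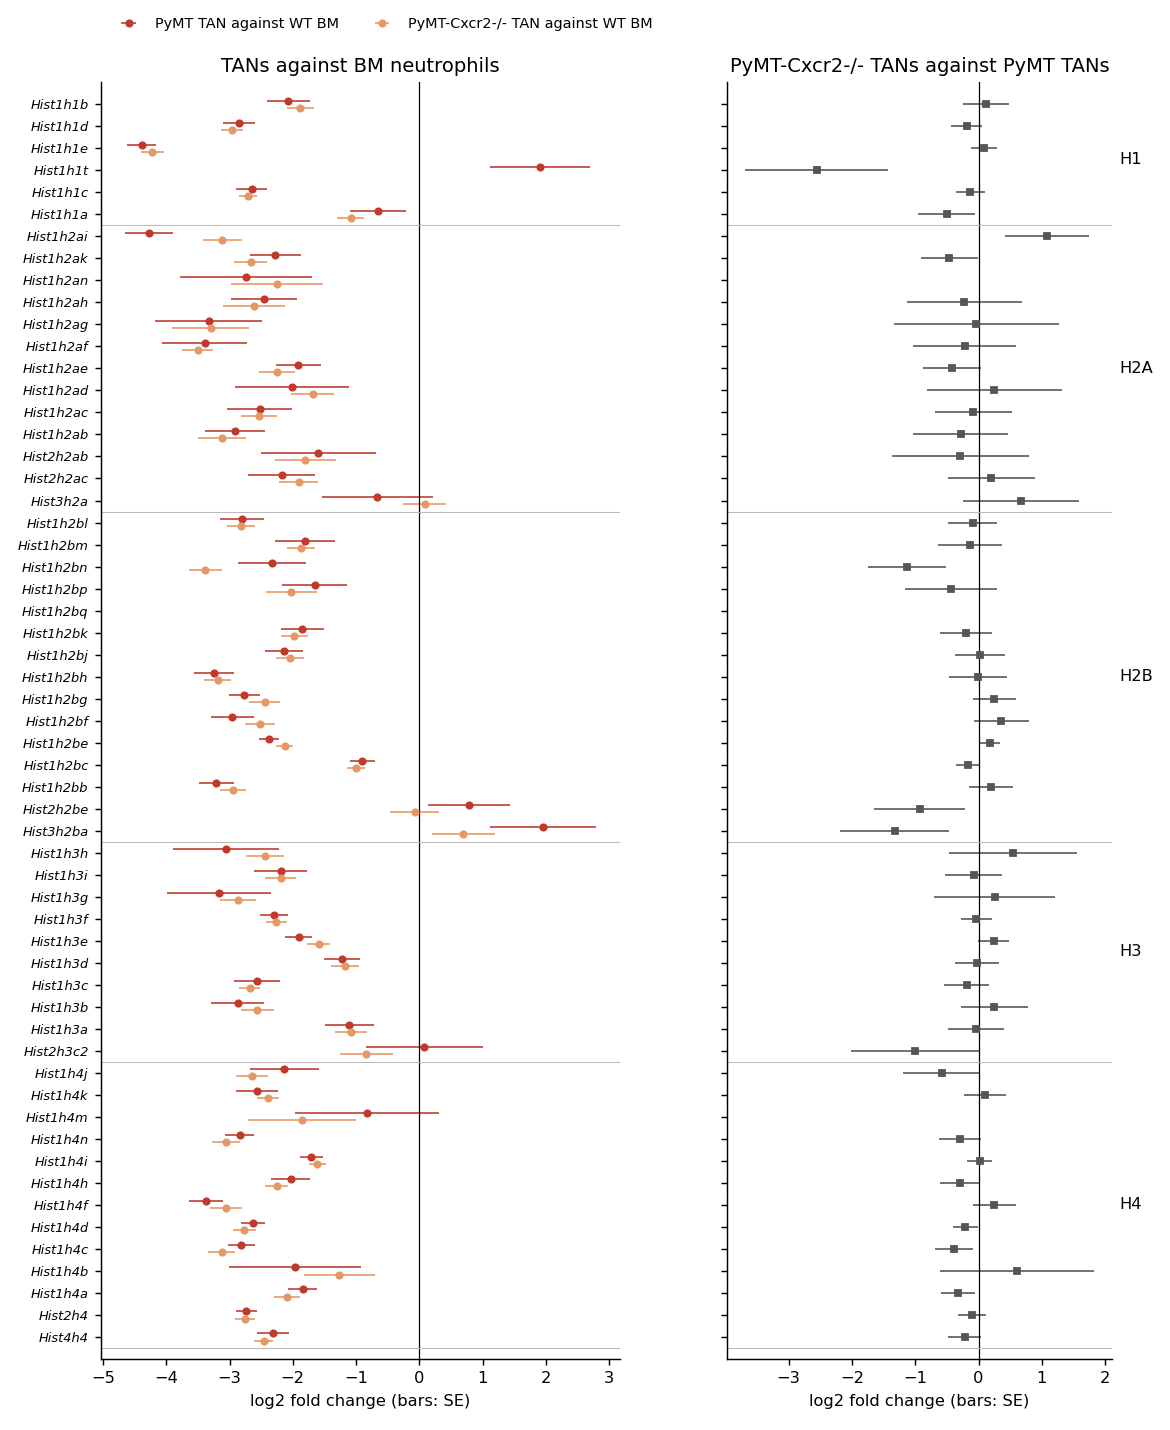
Log2 fold change of each kept histone gene, grouped by class, with bars of 1 standard error on either side. The left panel plots TANs of each genotype against WT BM neutrophils, where most points lie between -1 and -4, and the right panel plots PyMT-Cxcr2-/- TANs against PyMT TANs, where the points lie around 0 and none was past the thresholds; genes without a point were not tested.

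The linker histones were the class with the most reads, and their sum differed the most between BM and TANs. Summed over the 6 H1 genes, the level was 203 ± 54.98 CPM in the PyMT group, 190 ± 25.2 CPM in the PyMT-Cxcr2-/- group and 1783 ± 304 CPM in BM (SD, n = 4 each). BM was thus 8.76-fold and 9.39-fold higher. Most of the sum came from Hist1h1c and Hist1h1e, with 177, 166 and 1639 CPM together in the same order. BM was 6.56-fold and 7.17-fold higher for Hist1h1c and 21.9-fold and 20.5-fold higher for Hist1h1e. The median log2 fold change of the H1 genes tested was -2.36 in PyMT TANs and -2.71 in PyMT-Cxcr2-/- TANs. For H2A genes it was -2.45 and -2.53, so by median H1 did not differ the most in PyMT TANs. H1 genes gave 57.55% to 62.8% of the histone reads of the BM libraries, 46.3% to 50.4% when TANs lacked Cxcr2, and 38.2% to 60.9% in PyMT TANs, where library 1 lay within the range of BM.

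Hist1h1c had the highest level per kb of all histone genes in each of the 3 groups, with 93.2 CPM per kb of exon for the PyMT group, 85.2 for the PyMT-Cxcr2-/- group and 611 for BM. Its CPM was 213, 134, 147 and 87.8 in PyMT TANs, 152, 120, 118 and 141 in PyMT-Cxcr2-/- TANs and 1077, 980, 742 and 1014 in BM. The TAN groups overlapped, and BM was higher in 4 of 4 libraries. Its log2 fold change against BM was -2.65 (SE 0.24, adjusted p = 4.2e-06) in PyMT TANs and -2.71 (SE 0.14, adjusted p = 5.7e-09) in PyMT-Cxcr2-/- TANs.

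Hist1h1e had the largest fall of all histone genes. Its CPM was 36.0, 33.6, 35.1 and 20.5 in PyMT TANs, 39.5, 33.4, 25.3 and 35.4 in PyMT-Cxcr2-/- TANs and 797.5, 678, 502 and 766 in BM. All 4 BM libraries stood far above all TAN libraries, and the mean of BM was 21.9-fold and 20.5-fold higher. The log2 fold change was -4.39 (SE 0.22, adjusted p = 9e-08) in PyMT TANs and -4.22 (SE 0.18, adjusted p = 1.1e-09) in PyMT-Cxcr2-/- TANs. In the annotation its exon overlaps that of Hist1h2be on the same strand, so reads in the shared part may have been assigned to neither.

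Hist1h1d, another linker histone, fell in both TAN groups as well, with log2 fold changes of -2.85 (SE 0.25) and -2.96 (SE 0.18). Hist1h1b fell by 2.07 and by 1.88 on the log2 scale. Hist1h1a ranged from 2.49 to 12.1 CPM in PyMT TANs, overlapping with the 8.17 to 12.4 CPM of BM. It was lower by the test in PyMT-Cxcr2-/- TANs (log2 fold change -1.08, SE 0.21, adjusted p = 0.00047), while the value of PyMT TANs was -0.65 (SE 0.45, adjusted p = 0.24) but passed without PyMT TAN library 3.

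Hist1h1t, known as the linker histone of the testis, was just inside the count limit. It had 10 or more counts only in the 4 PyMT TAN libraries. It was thus kept through the group where it was high, and its higher level there is in part a result of that selection. It was at 0.253, 0.748, 0.409 and 0.208 CPM in PyMT TANs, at 0.0754, 0.154, 0.0413 and 0 CPM in PyMT-Cxcr2-/- TANs and at 0.06, 0.124, 0.143 and 0.112 CPM in BM. The 4 PyMT TAN libraries were above the other 8, several of which were near the level of 3 counts. The log2 fold change was 1.91 for PyMT TANs against BM (SE 0.79, adjusted p = 0.058) and -2.56 for PyMT-Cxcr2-/- TANs against PyMT TANs (SE 1.13, adjusted p = 0.31), and neither was past the threshold. Without PyMT TAN library 3 the first became a call (1.86, adjusted p = 0.046), as it did after the adjustment for GC content and length (2.497, adjusted p = 0.019).

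**Figure D3:**
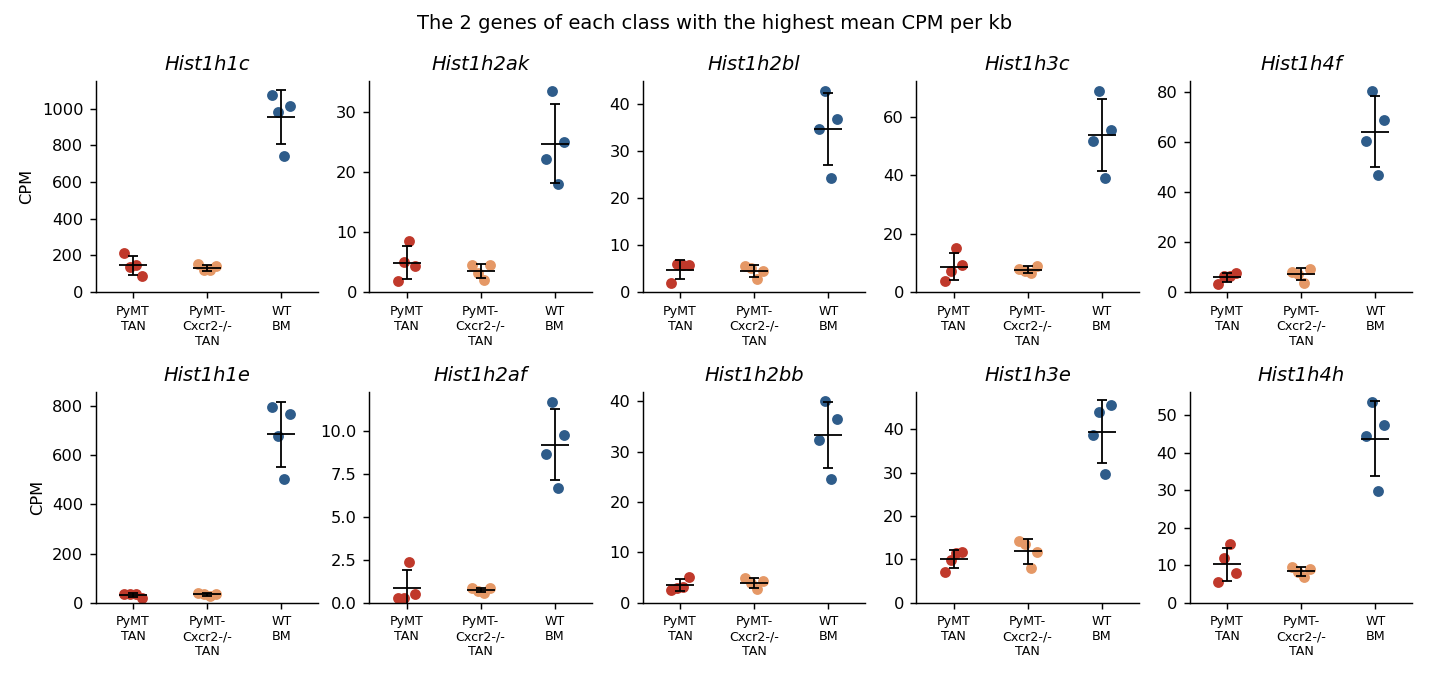
CPM of the 2 genes of each class with the highest mean CPM per kb of exon, 1 point per library, with the mean and SD of the 4 libraries of each group. The axes start at 0 and differ between genes; in each of the 10 genes the 4 BM libraries lie above the 8 TAN libraries.

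The H2A genes, whose product forms a dimer with H2B in the nucleosome, had the lowest levels. Their median level was 0.832 CPM per kb for the PyMT group, 0.79 for the PyMT-Cxcr2-/- group and 7.04 for BM. Of 13 tested, 10 were lower in PyMT TANs and 12 in PyMT-Cxcr2-/- TANs. In the annotation, all 13 had an exon that overlaps one of another gene on the opposite strand. Of 265 genes that lie inside exons of the opposite strand, 262 had 0 counts in the 12 libraries (98.9%, compared to 35.5% of all genes). The strand setting of the counting is not given in the sources used here, so the levels of the H2A genes are uncertain and may be too low.

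Hist1h2ai was at 0.506, 0.267, 0.478 and 0.375 CPM in PyMT TANs, at 1.15, 0.616, 0.661 and 1.028 CPM in PyMT-Cxcr2-/- TANs and at 7.17, 11.9, 5.31 and 8.72 CPM in BM. All 3 groups stood apart. Relative to BM, the log2 fold change was -4.27 (SE 0.38, adjusted p = 3.6e-06) in PyMT TANs and -3.11 (SE 0.30, adjusted p = 9.7e-07) in PyMT-Cxcr2-/- TANs. Only 12.4% of its 120-base windows had a sequence found in no transcript of another locus, so its reads could be shared with near-identical H2A genes.

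Hist1h2af was at 0.253, 0.267, 2.39 and 0.521 CPM in PyMT TANs, at 0.849, 0.668, 0.578 and 0.843 CPM in PyMT-Cxcr2-/- TANs and at 8.67, 11.7, 6.71 and 9.79 CPM in BM. PyMT TAN library 3 stood above the other 7 TAN libraries but below all of BM. The log2 fold changes against BM were -3.39 (SE 0.67, adjusted p = 0.0012) and -3.51 (SE 0.25, adjusted p = 5.5e-08). Hist1h2ak, with 96% of its windows found nowhere else, was at 12.4 CPM per kb for the PyMT group, 9.03 for the PyMT-Cxcr2-/- group and 62.97 for BM, and its log2 fold changes against BM were -2.28 (SE 0.40) and -2.66 (SE 0.26).

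Hist1h2ac, with an annotated 3′UTR of 2058 bases, fell by 2.52 (SE 0.52) and 2.53 (SE 0.28) on the log2 scale. Hist3h2a, on chromosome 11 and overlapping Trim17, was not past the threshold in either comparison. It ranged from 0 to 1.23 CPM in the PyMT group, from 0.682 to 1.54 CPM in the PyMT-Cxcr2-/- group and from 0.918 to 1.42 CPM in BM, and the 3 groups overlapped.

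Among the H2B genes, 12 of 14 tested were lower in PyMT TANs and 12 of 14 in PyMT-Cxcr2-/- TANs. Their sum was 65.1 ± 12.01 CPM, 63.5 ± 9.11 CPM and 314 ± 53.3 CPM in PyMT TANs, PyMT-Cxcr2-/- TANs and BM (SD, n = 4 each). Hist1h2bb was at 2.49, 2.94, 3.14 and 5.17 CPM in PyMT TANs, at 4.96, 3.85, 2.62 and 4.34 CPM in PyMT-Cxcr2-/- TANs and at 32.3, 40.004, 24.6 and 36.4 CPM in BM. The TAN groups overlapped and BM stood apart. The log2 fold changes against BM were -3.21 (SE 0.27, adjusted p = 2.3e-06) and -2.94 (SE 0.21, adjusted p = 6.5e-08).

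Hist1h2bh fell by 3.24 (SE 0.32) and by 3.19 (SE 0.22). Hist1h2bl had the highest level per kb of this class over the 12 libraries, and its log2 fold changes were -2.80 (SE 0.35) and -2.82 (SE 0.22). Hist1h2bn varied more among PyMT TANs, with 0.675, 2.89, 6.65 and 2 CPM, compared to 1.57, 1.28, 0.785 and 1.95 CPM in PyMT-Cxcr2-/- TANs and 17.4, 16.1, 11.7 and 18.8 CPM in BM. Its log2 fold change against BM was -2.33 (SE 0.53, adjusted p = 0.003) in PyMT TANs and -3.38 (SE 0.26, adjusted p = 1.3e-07) in PyMT-Cxcr2-/- TANs, and the difference between the TAN groups was -1.13 (SE 0.61, adjusted p = 0.44).

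Hist1h2bc, an H2B gene with a spliced transcript in the annotation, had the smallest fall among the H2B genes that passed the test. It was at 16.5, 12.3, 20.02 and 17.3 CPM in PyMT TANs, at 16.3, 13.1, 14.5 and 14.97 CPM in PyMT-Cxcr2-/- TANs and at 38.9, 35.0, 24.2 and 31.6 CPM in BM. The TAN groups overlapped, and the lowest BM library was close above the highest TAN library. The log2 fold change was -0.91 (SE 0.20, adjusted p = 0.0022) in PyMT TANs and -1.002 (SE 0.15, adjusted p = 3.5e-05) in PyMT-Cxcr2-/- TANs. The former was no longer a call after the adjustment for GC content and length (-0.44, adjusted p = 0.18).

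Hist1h2be fell by 2.38 (SE 0.16) and by 2.13 (SE 0.13), and Hist1h2bp by 1.66 (SE 0.51) and by 2.02 (SE 0.40). The former call of Hist1h2bp was lost once GC content and length were adjusted for, at -0.89 (adjusted p = 0.2), and at -1.18 (adjusted p = 0.17) with the replicate block as well. Hist2h2be, on chromosome 3 with an annotated 3′UTR of 2192 bases, did not pass the test in either comparison. It was at 0.991, 1.42, 0.205 and 1.44 CPM in PyMT TANs, at 0.528, 0.616, 0.661 and 0.329 CPM in PyMT-Cxcr2-/- TANs and at 0.54, 0.619, 0.631 and 0.673 CPM in BM. PyMT TAN library 3 was the lowest of all 12, and the other 3 PyMT TAN libraries were the highest. The log2 fold changes against BM were 0.78 (SE 0.65, adjusted p = 0.33) and -0.07 (SE 0.39, adjusted p = 0.88). Without PyMT TAN library 3 the former became a call (1.10, adjusted p = 0.042). Hist3h2ba, chosen here after its values were seen, had the highest estimate in PyMT TANs against BM, at 1.95 (SE 0.84, adjusted p = 0.068).

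Of 10 H3 genes, 9 were lower in PyMT TANs and 9 in PyMT-Cxcr2-/- TANs. Their sum was 38.1 ± 11.4 CPM, 38.8 ± 7.06 CPM and 184 ± 37.4 CPM (SD, n = 4 each). Hist1h3c had the highest level per kb of this class over the 12 libraries, at 3.67, 7.13, 14.98 and 9.08 CPM in PyMT TANs, at 7.88, 7.29, 6.36 and 9.07 CPM in PyMT-Cxcr2-/- TANs and at 51.8, 69.1, 39.3 and 55.6 CPM in BM. PyMT TANs spread over a wider range than PyMT-Cxcr2-/- TANs, and all BM libraries were higher. The log2 fold changes were -2.56 (SE 0.37, adjusted p = 0.00011) and -2.68 (SE 0.17, adjusted p = 2.4e-08).

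Hist1h3e, at 12.02 CPM per kb for the PyMT group, 14.2 for the PyMT-Cxcr2-/- group and 47.2 for BM, fell by 1.91 (SE 0.21) and by 1.59 (SE 0.19). Hist1h3d fell by 1.23 (SE 0.28) and by 1.18 (SE 0.22), and the former was lost with the replicate block and the adjustment together (-0.85, adjusted p = 0.068). The H3 gene that did not pass was Hist2h3c2 on chromosome 3, at 0.08 (SE 0.93) and -0.84 (SE 0.42), which was named after its values were seen.

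Of 13 H4 genes, 11 were lower in each TAN group. Their sum was 103 ± 19.8 CPM, 92.6 ± 16.2 CPM and 594 ± 105 CPM (SD, n = 4 each), and H4 had the highest median level per kb of the 5 classes in all 3 groups, with 10.8, 8.53 and 71.6 CPM per kb. Hist1h4f was at 3.29, 6.49, 6.41 and 7.44 CPM in PyMT TANs, at 7.79, 7.29, 3.66 and 9.35 CPM in PyMT-Cxcr2-/- TANs and at 60.4, 80.4, 46.8 and 68.7 CPM in BM. The lowest BM library was again well above the highest TAN library. The log2 fold changes were -3.37 (SE 0.27, adjusted p = 1.7e-06) and -3.05 (SE 0.26, adjusted p = 8.4e-07).

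Hist1h4d, whose annotated transcript is found nowhere else (100% of windows) and overlaps no other gene, fell by 2.63 (SE 0.19) and by 2.76 (SE 0.18). Hist1h4c fell by 2.81 (SE 0.21) and by 3.12 (SE 0.21), and Hist1h4h by 2.03 (SE 0.31) and by 2.26 (SE 0.18). The H4 genes outside the large cluster on chromosome 13 moved likewise. Hist2h4 on chromosome 3 fell by 2.73 (SE 0.17) and by 2.76 (SE 0.16), and Hist4h4, alone on chromosome 6, fell by 2.32 (SE 0.25) and by 2.46 (SE 0.15). The H4 genes that did not pass in either comparison, Hist1h4b and Hist1h4m, were under 1 CPM in all libraries.

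Of the 49 kept genes of the Hist1 cluster, 20 lie between 21 and 23 Mb and 29 between 23 and 24 Mb of chromosome 13. The median log2 fold change of PyMT TANs against BM was -2.28 in the former and -2.56 in the latter, with 18 of 19 and 25 of 29 genes lower. In PyMT-Cxcr2-/- TANs the medians were -2.40 and -2.53, with 18 of 19 and 27 of 28 lower. On chromosome 3, 2 of 5 and 3 of 5 genes were lower, and neither Hist3h2a nor Hist3h2ba on chromosome 11 passed in either comparison. In the 41 genes with the stem-loop in the annotated transcript, the medians were -2.30 and -2.35, and in the 16 without it -2.33 and -2.40. Over the 24 genes with at least 80% of windows found nowhere else, the medians were -2.23 and -2.46, with 18 of 24 and 20 of 23 lower. The order of the 57 genes by CPM per kb was much alike between groups, with a Spearman's rho across genes of 0.976 between the TAN groups, 0.934 between PyMT TANs and BM and 0.945 between PyMT-Cxcr2-/- TANs and BM. Genes are not independent replicates, and the values share gene length and sequence.

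The second question was whether histone transcripts of TANs differ with Cxcr2. Of 54 histone genes tested, none was higher and none was lower in PyMT-Cxcr2-/- TANs than in PyMT TANs by edgeR, where 1.38% of 18463 genes were higher and 0.596% were lower (1.98% together). DESeq2 also called 0, where it called 693 of the 18463 genes higher and 294 lower. By edgeR, 1 of the 54 had an unadjusted p under 0.05, compared to 15.2% of all genes tested. The median log2 fold change was -0.10 over the histone genes and -0.07 over all genes, and 35 of 54 estimates were below 0. The standard errors were between 0.16 and 1.298 with a median of 0.45. For most genes the interval of the difference is thus wide, and the test does not show that the groups were alike. The TAN groups also differed in their neutrophil markers, as given above.

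For the genes with the most reads the estimates were tighter. PyMT-Cxcr2-/- TANs differed from PyMT TANs by -0.13 in Hist1h1c (SE 0.23, adjusted p = 0.88), by 0.09 in Hist1h1e (SE 0.21, adjusted p = 0.92), by 0.17 in Hist1h2be (SE 0.16, adjusted p = 0.72) and by -0.21 in Hist1h4d (SE 0.20, adjusted p = 0.74) on the log2 scale. In Hist1h2ai, described above for its fall against BM, the TAN groups did not overlap and the estimate was 1.08 (SE 0.66, adjusted p = 0.51). It was the only histone gene without overlap in the higher direction, where 6.27% of all genes had none. Hist1h1t was the only one in the lower direction, where 5.8% had none, and it had met the count limit through the PyMT TAN libraries alone. The ratio of the summed histone CPM of PyMT-Cxcr2-/- TANs to that of PyMT TANs was 0.938, and it was between 0.897 and 1.019 in the 5 classes.

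The TAN libraries varied among themselves. PyMT TAN library 3 had the highest sums of H2A, H2B, H3 and H4 genes of all 8, with 18.8, 77.7, 49.8 and 131 CPM. It also had the lowest total count, 25032704 reads, and 150 CPM of erythroid markers, which were at 1.73 to 3.39 CPM in the other 3 PyMT TAN libraries. The PyMT TAN libraries 3 and 4 had the most mammary epithelial transcripts, with 348 and 497 CPM. They had the highest and the lowest sum of all histone genes in their group, with 501 and 360 CPM. Library 4 had the lowest H1 sum of all TANs, 137 CPM. Its H2A, H2B and H3 sums, 14.2, 72.5 and 44.0 CPM, were above those of libraries 1 and 2. Its H4 sum, 91.9 CPM, was above that of library 1 only. Without H1, the sums of this group ranged from 171 CPM in library 1 to 277 CPM in library 3. A link to epithelial transcripts was not tested. Library 1, with the least epithelial (53.8 CPM) and macrophage transcripts (2209 CPM) of this group, had a sum of 438 CPM, and it had the highest H1 sum of all TANs (266 CPM) with the lowest H2A, H2B, H3 and H4 sums in PyMT TANs.

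The genes that transcribe or process histone mRNA went in both directions, about as often as all genes did. Of 24 such genes, 7 were higher and 6 were lower in PyMT TANs than in BM, and in PyMT-Cxcr2-/- TANs 7 rose and 5 fell. Of all genes, 30.1% and 34.4% were higher and 23.2% and 25.1% lower, so the counts of this list were near those shares. Npat, the coactivator of histone gene transcription, was at 19, 15.98, 18.7 and 19.2 CPM in PyMT TANs, at 12.5, 12.4, 10.7 and 12.99 CPM in PyMT-Cxcr2-/- TANs and at 7.23, 9.94, 7.08 and 6.76 CPM in BM. The 3 groups did not overlap, with BM the lowest. It was higher than in BM in PyMT TANs (log2 fold change 1.2995, SE 0.19, adjusted p = 0.00014) and in PyMT-Cxcr2-/- TANs (0.78, SE 0.16, adjusted p = 0.00079), and the difference between the TAN groups, -0.59 (SE 0.16), had an adjusted p of 0.098.

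Slbp, which encodes the stem-loop binding protein, ranged from 33.2 to 47.4 CPM in the PyMT group, from 28.6 to 36.4 CPM in the PyMT-Cxcr2-/- group and from 41.9 to 53.8 CPM in BM. Its log2 fold change against BM was -0.17 (SE 0.14, adjusted p = 0.33) in PyMT TANs and -0.46 (SE 0.11, adjusted p = 0.0021) in PyMT-Cxcr2-/- TANs, under 1.5-fold in both. With all 12 libraries in one fit the latter was a call (-0.60, adjusted p = 0.0018). The subunits of the U7 snRNP went in opposite directions. Lsm11 was higher in both TAN groups, by 1.56 (SE 0.33) and 1.20 (SE 0.25), while Lsm10 was lower, with -1.49 (SE 0.24) and -1.21 (SE 0.15). Zfp473, a zinc finger protein of the same complex, was higher by 1.85 (SE 0.34) and 0.90 (SE 0.35), and Casp8ap2, which acts with NPAT, was at 0.44 (SE 0.19) and 0.16 (SE 0.10) and did not pass. The call of Zfp473 in PyMT-Cxcr2-/- TANs (adjusted p = 0.033) was lost without library 2 or 4 of this group (0.73 and 0.71) or library 1, 2 or 3 of BM (0.81, 0.89 and 0.83), and once GC content and length were adjusted for (0.55).

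Replacement histone genes are as a rule, but not all of them, expressed throughout the cell cycle with poly(A) mRNAs. Of those listed, 9 of 10 tested were lower in PyMT TANs and 6 of 11 in PyMT-Cxcr2-/- TANs. The medians were -0.91 and -0.65, and 23.2% and 25.1% of all genes were lower. H3f3a and H3f3b, which encode the H3 variant deposited outside replication, were at -1.20 (SE 0.11) and -0.70 (SE 0.13) in PyMT TANs and at -0.85 (SE 0.11) and -0.83 (SE 0.12) in PyMT-Cxcr2-/- TANs. H2afx, the variant that is phosphorylated at DNA breaks, was at -0.93 (SE 0.29) and -1.41 (SE 0.21). H2afz was at -0.63 (SE 0.11) and, under 1.5-fold, at -0.50 (SE 0.10). Its first value fell under 1.5-fold with upper-quartile factors (-0.54) and once GC content and length were adjusted for (-0.46), and its second passed with all 12 libraries in one fit (-0.64, adjusted p = 0.00017).

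In PyMT TANs the exception was H1f0, the linker histone of non-dividing cells. It was at 27.7, 26.8, 27.97 and 19.2 CPM in PyMT TANs, at 16.01, 14.97, 9.85 and 8.53 CPM in PyMT-Cxcr2-/- TANs and at 20.3, 16.6, 13.8 and 17.7 CPM in BM. PyMT TANs did not overlap with PyMT-Cxcr2-/- TANs, and BM overlapped with both. It was higher in PyMT TANs than in BM by 0.64 (SE 0.18, adjusted p = 0.01) and lower in PyMT-Cxcr2-/- TANs than in PyMT TANs (-1.05, SE 0.23, adjusted p = 0.048). Both were near a threshold. The latter was lost with any of the 8 TAN libraries left out, with estimates between -0.88 and -1.19 and adjusted p between 0.051 and 0.2. It was also lost with RLE size factors (adjusted p = 0.053), the replicate block (0.13) or GC content and length adjusted for (0.058). The former fell under 1.5-fold without PyMT TAN library 1 or 3 or BM library 2 or 3, at 0.50 to 0.58. It also did so with RLE size factors, DESeq2, other count filters or all 12 libraries in one fit, at 0.56 to 0.57. In PyMT-Cxcr2-/- TANs H1f0 was at -0.33 against BM and did not pass, and the gene that was higher there was H1fx, another linker histone, with 38, 14, 52 and 21 counts against 5, 0, 0 and 3 in BM (log2 fold change 3.53, SE 0.77, adjusted p = 0.0011). H1fx was too low to be tested between PyMT TANs and BM.

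Genes of DNA replication are likewise used in S phase. Of 34, 16 were higher and 3 lower in PyMT TANs than in BM, with a median of 0.74, beside 30.1% higher and 23.2% lower among all genes. In PyMT-Cxcr2-/- TANs 12 rose and 6 fell, with a median of 0.31, and the share that rose was close to the 34.4% of all genes. In PyMT TANs the lower count became 5 without PyMT TAN library 4, in one fit of 12 libraries or with GC content and length adjusted for, and the higher count became 9 with that adjustment and the replicate block together. Mcm2, a subunit of the replicative helicase, was higher by 1.05 (SE 0.23) and 0.98 (SE 0.23). Pcna, the sliding clamp of the polymerases, was at 71.7 to 84.1 CPM in PyMT TANs, 42.6 to 51.02 CPM in those lacking Cxcr2 and 29.97 to 53.3 CPM in BM. It was higher in PyMT TANs than in BM by 1.15 (SE 0.18, adjusted p = 0.00028), and it was the only gene of this list that differed between the TAN groups (-0.73, SE 0.13, adjusted p = 0.019). That call was lost without PyMT TAN library 2 (-0.74, adjusted p = 0.067) or PyMT-Cxcr2-/- TAN library 2, 3 or 4 (-0.67, -0.69 and -0.73, adjusted p = 0.054, 0.087 and 0.065). It was also lost with the replicate block (-0.73, adjusted p = 0.15), with GC content and length adjusted for (-0.68, adjusted p = 0.065) and with both (-0.67, adjusted p = 0.32).

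Ccne2, the cyclin E that acts at the start of S phase, was at -0.28 (SE 0.38) and -1.38 (SE 0.24), and Rrm2, of ribonucleotide reductase, at -0.58 (SE 0.29) and -0.73 (SE 0.16), where in each the value of PyMT-Cxcr2-/- TANs alone was past the thresholds. Without PyMT TAN library 4, Rrm2 was a call in PyMT TANs too (-0.86, adjusted p = 0.022). Of 13 histone chaperones, 4 were higher and 1 lower in PyMT TANs and in PyMT-Cxcr2-/- TANs 1 rose and 2 fell, beside 30.1% higher and 23.2% lower of all genes in the former and 34.4% and 25.1% in the latter. These small counts moved with the setting. In PyMT TANs 2 were lower without PyMT TAN library 2 or 3, and in PyMT-Cxcr2-/- TANs 2 were higher without library 1, 2 or 4 of that group or BM library 3 or 4, 3 were higher without BM library 2, and 5 were lower with GC content and length adjusted for. The chaperone Asf1b, which passes H3 and H4 on to new DNA in dividing cells, was lower in both, with -1.49 (SE 0.33) and -1.24 (SE 0.31).

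Of the genes of mitosis, fewer passed the test in PyMT TANs than in PyMT-Cxcr2-/- TANs, and the difference between the TAN groups passed for none of them. Of 19 tested, none was higher in either comparison, while 4 were lower in PyMT TANs and 16 in PyMT-Cxcr2-/- TANs, with medians of -0.80 and -1.06. Of all genes 23.2% and 25.1% were lower, so the count in PyMT TANs was near that share. The count of 4 moved between 2 (without PyMT TAN library 2 or BM library 2) and 11 (without PyMT TAN library 3). The 20 genes summed to 180 to 304 CPM in the PyMT group, 203 to 278 CPM in the PyMT-Cxcr2-/- group and 410 to 511 CPM in BM, without overlap between TANs and BM. Mki67, the proliferation marker Ki-67, was at 65.1, 69.9, 90.1 and 93.9 CPM in PyMT TANs, at 99.0, 84.4, 85.6 and 131 CPM in PyMT-Cxcr2-/- TANs and at 170, 205, 180 and 188 CPM in BM. Its log2 fold changes against BM were -1.15 (SE 0.15, adjusted p = 5.1e-05) and -0.76 (SE 0.13, adjusted p = 0.00017). Top2a, a DNA topoisomerase of dividing cells, was at -1.01 (SE 0.36) and -1.18 (SE 0.14), and the former was lost without PyMT TAN library 2 (-0.88) or BM library 2 (-0.90).

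**Figure D4:**
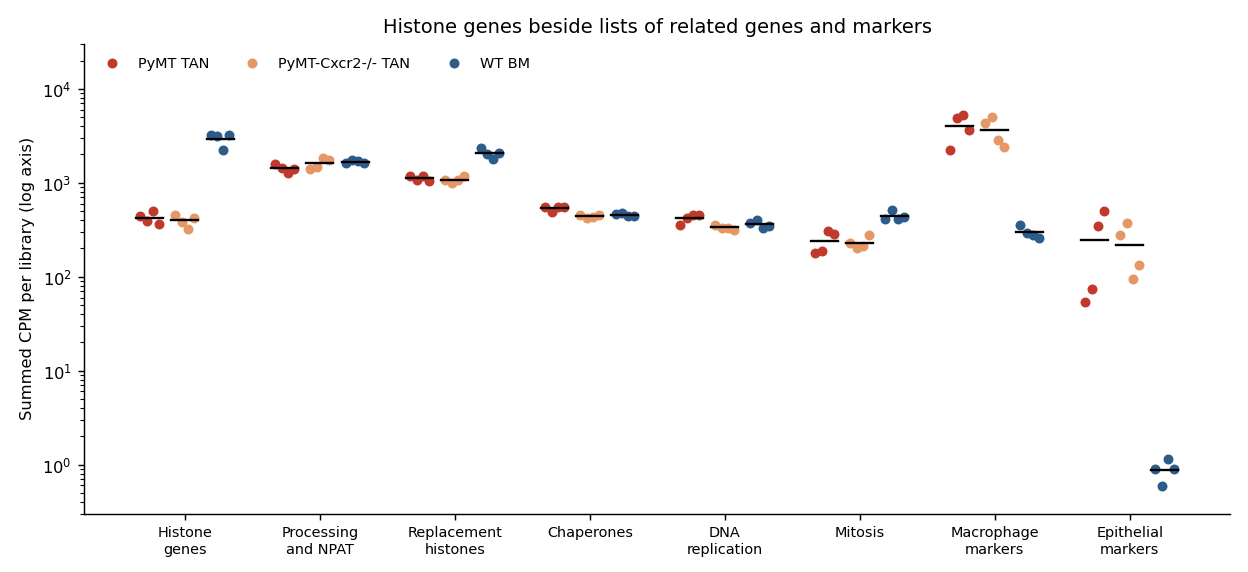
Summed CPM of the kept histone genes, of 5 lists of related genes and of 2 lists of markers of other cell types in each library (log axis), with 1 point per library and a line at the mean of the group. TANs lie below BM for the histone genes, the replacement histones and mitosis, overlap with BM for DNA replication and lie above BM for the macrophage and epithelial markers.

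The 10 histone genes that were not kept were 5 H2A, 3 H2B and 2 H3 genes. Hist1h2br was the nearest to the limit, at 0.186 to 0.48 CPM in BM and at 0 in the 4 PyMT-Cxcr2-/- TAN libraries, and Hist1h2bq, just inside it, was at 0 to 0.512 CPM over the 12 libraries. For Hist2h2aa1, Hist2h2aa2, Hist1h2ao and Hist1h2ap, at most 8.3% of the windows were found nowhere else, and they had 0 to 4 counts in each library. Reads that align to more than 1 place were not counted, so nothing can be said of the expression of these copies. The share of such reads was 6.1% to 8.7% in TANs and 9.2% to 11.4% in BM.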

How the data were processed

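RNA-seq was done by the authors on sorted neutrophils of 3 groups with 4 libraries each. Per the study's methods, ribosomal RNA was depleted, directional paired-end libraries were sequenced, trimmed reads were aligned to mm10 with STAR, and HTSeq counted reads per gene. The deposited values are these whole-number counts, not normalized. The annotation release and the strand setting are not given in the sources used here. Between 32.0% and 52.5% of the reads of a library had no feature, and 6.07% to 11.41% did not align uniquely; such rows were left out of library sizes and tests. Unequal shares of uncounted reads can shift the CPM of repeated gene families.

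Gene names were matched by Ensembl ID to GENCODE M21 (55154 of 55335 genes). Each comparison was fitted over its own 2 groups and all genes with edgeR 4.0.16 in R 4.3.3 (filterByExpr, TMM factors, robust quasi-likelihood test, Benjamini-Hochberg adjustment). Standard errors were taken as the absolute log2 fold change over the root of the F statistic. CPM used TMM factors over 12 libraries. Tables and sequences were handled with Python 3.11.15 and pandas 2.3.3. The scripts were tested on simulated counts. Alternatives were DESeq2 1.42.0, other factors and filters, all libraries in 1 fit, a replicate block, an adjustment for GC content and length, and each library left out in turn.

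The histone genes, the gene lists and the tests were chosen with earlier results of these data known. Genes were named by rule: the 2 highest per kb of each class, the 3 largest changes in either direction with an average log2 CPM of at least 0, those with a 3′UTR over 500 bases or a spliced transcript, those next to the count limit, and listed genes of the related lists. H1fx, Hist1h1a, Hist1h1b, Hist2h3c2, Hist3h2ba, Hist1h4b and Hist1h4m fall outside it and were named after their values were seen.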

Additional observations from a re-analysis of the deposited data

Results flagged for a closer look

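In groups of 4 libraries, a library was singled out when its gap to the nearest of the others, divided by the range of the group, was above Dixon's critical value. Of 159 groups checked, 12 held such a library, and chance alone gives about 1 in 20. Among the sums, BM library 3 had 2212 CPM over all histone genes (3175 to 3238 CPM in the others) and 234.4 CPM over the H2B genes (332 to 349.8 CPM), and PyMT-Cxcr2-/- TAN library 3 had 28.3 CPM over the H3 genes (41.71 to 43.37 CPM). BM library 3 was still above every TAN library in each class.

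Among PyMT TANs, library 3 was high in Hist1h2af at 2.388 CPM (0.253 to 0.5208 CPM in the others), in Hist4h4 at 21.15 CPM (10.61 to 11.41 CPM) and in Lsm11 at 5.799 CPM (3.75 to 3.875 CPM). Library 4 was low in Hist1h1e at 20.54 CPM (33.57 to 36.02 CPM) and in H1f0 at 19.17 CPM (26.83 to 27.97 CPM). Library 1 was low in Hist1h2bl at 1.813 CPM (5.629 to 5.906 CPM), and library 2 was low in Npat at 15.98 CPM (18.69 to 19.21 CPM). In BM, library 2 was high in Npat at 9.939 CPM (6.758 to 7.23 CPM). In PyMT-Cxcr2-/- TANs, library 4 was high in Hist1h2bq at 0.1233 CPM (0 to 0.01885 CPM), a gene near the limit of detection.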

How the results depend on the processing

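No histone gene called lower in TANs changed direction under any alternative run. The count of lower genes in PyMT TANs was between 38 and 47 under the other tools, scalings, filters and adjustments, and between 44 and 49 with 1 library left out, with 0 to 2 higher; in PyMT-Cxcr2-/- TANs these were 46 to 50 and 49 to 51. The medians with 1 library left out were -2.62 to -2.21, -2.53 to -2.22 and, between the TAN groups, -0.19 to 0.06, and the sums 397 to 444, 377 to 423 and 2859 to 3201 CPM. Between the TAN groups 0 histone genes were called under each alternative. Some of these runs called few genes at all. Without PyMT TAN library 2, 10 of all 19084 genes were higher and 13 lower, so 0 histone genes says little there. With DESeq2, 693 of all 18463 genes were higher and 294 lower. The adjustment for GC content and length gave medians of -1.63 and -1.93 and 2 genes higher in PyMT TANs (Hist1h1t and Hist3h2ba); the cause was not tested. Alternatives on which genes count were added after seeing the data. With at least 80% of windows found nowhere else, 18 of 24 and 20 of 23 genes were lower, as fewer genes entered, and the sums were 314, 294 and 2410 CPM in PyMT TANs, PyMT-Cxcr2-/- TANs and BM. They were 361, 331 and 2090 CPM for genes whose exons overlap no other gene, and 247, 231 and 1314 CPM without Hist1h1c and Hist1h1e. With library totals alone the sums were 496 CPM in PyMT TANs and 2431 CPM in BM. The planned count of windows in the genome was not run, and transcripts were used instead.

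Libraries with the same replicate number did not deviate together (mean correlation -0.129, -0.042 and 0.046), so the numbers were not taken to pair them. With the replicate block, 45 genes (median -2.52) and 50 genes (median -2.45) were lower than in BM and 0 differed between the TAN groups (median 0.0048). Of all 18463 genes, only 4 were higher and 9 lower between the TAN groups in that run. With the block and the GC and length adjustment together, 38 and 49 were lower, with medians of -1.98 in both.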
